A study of Mus musculus with 24 samples.

Results

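The comparison described here is the difference between D2 and B6 mice in what the Lama2-CMD mutation did to the transcripts of the left quadriceps. For each gene it is the log2 fold change of CMD against WT in D2 minus the same fold change in B6, written below as the D2 minus B6 difference. All genes entered it, so its members are the 14789 genes with enough reads for a test, of the 25369 genes listed. It rests on 12 of the 24 libraries: B6 WT (libraries 1 to 3), B6 CMD (4 to 6), D2 WT (19 to 21) and D2 CMD (22 to 24). B6 is C57BL/6J and D2 is DBA/2J. WT mice are labelled healthy, CMD mice carry Lama2-CMD, and all were 25 weeks old. The other 12 libraries are WT and CMD mice of the strains labelled 67 and 87 (BXD-67 and BXD-87), recombinant inbred lines of the B6 and D2 genomes, and they shared in the estimate of the spread. The labels do not name the Lama2 allele or say that each library is a separate mouse, so p-values measure the spread between these samples.

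Lama2 encodes the laminin alpha chain of the skeletal muscle basement membrane, and its loss causes a congenital muscular dystrophy in which fibres degenerate, regenerate and are replaced by scar. The DBA/2J background is known to worsen several mouse muscular dystrophies. Muscle fibres draw most of their energy from mitochondria, where the respiratory chain complexes I to IV pass electrons to oxygen and build the proton gradient that ATP synthase uses. Most subunits are encoded in the nucleus and imported, and a small set is encoded in the mitochondrial genome and translated by mitochondrial ribosomes.

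Lama2 itself had 40.9, 36.5 and 50.3 CPM (reads scaled to a common, normalised library size) in B6 WT and 23.7, 16 and 23.9 in B6 CMD. In D2 it had 42.5, 23.8 and 38.6 CPM in WT and 28.8, 23.3 and 29.0 in CMD. It fell in B6 by 1.0 on the log2 scale (SE 0.23, adjusted p = 0.00642), with no overlap of the groups. In D2 the log2 fold change was -0.37 (adjusted p = 0.24), the groups overlapped, and the D2 minus B6 difference was 0.63 (adjusted p = 0.303), which passed the threshold in 1 alternative fit, with sex as labelled (adjusted p = 0.0404). The 12 libraries held 32292613 to 51568531 total exon reads, of which 97.7% to 98.2% were unique. Reads of 4 Y-linked genes went against the sex label in 4 D2 libraries: D2 WT 19 and 21 are labelled male and held 1 and 0 such reads, and D2 CMD 22 and 24 are labelled female and held 4927 and 4858. By these reads D2 WT was 3 females and D2 CMD 1 female and 2 males, and B6 WT was 1 male and 2 females and B6 CMD 2 males and 1 female, by label and reads alike. By reads, each D2 group thus had the sexes labelled for the other D2 group, in the same library order. Whether samples or labels of D2 WT and D2 CMD were exchanged was not tested. Exchanged samples would turn round the sign of every D2 effect. By these reads sex moved with genotype in both strains, and values with sex taken from them are given below. The 12 skeletal muscle markers (Acta1, Ckm, Myh4 and others) summed to 231300 to 266700 CPM in B6 WT, 132400 to 159000 in B6 CMD, 198200 to 218200 in D2 WT and 113400 to 189900 in D2 CMD. Brain-type neuronal and glial transcripts such as Snap25 and Slc17a7 were present in B6, and 20 of 23 tested were lower in D2 than in B6 among WT and 21 of 23 among CMD. None of the 23 had a called D2 minus B6 difference by edgeR, 5 had an unadjusted p under 0.05, and DESeq2 called 1. In bulk muscle, fewer cells of a type and less RNA per cell cannot be told apart.

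The effect of CMD differed between the strains for 536 of 14789 genes (3.62%) by edgeR's quasi-likelihood test of the interaction at an adjusted p of 0.05. Of these, 370 were lower in D2 (2.50% of all genes) and 166 were higher (1.12%). The median size was 1.07 on the log2 scale among the lower genes and 1.40 among the higher ones. In the separate strains CMD changed 2724 genes in B6 (18.4%; 1193 rose, 8.07%, and 1531 fell, 10.4%) and 2986 in D2 (20.2%; 1651 rose, 11.2%, and 1335 fell, 9.03%). The median over all genes tested was 0.09 for the difference, 0.01 for the effect in B6 and 0.03 for that in D2. Among the 370 lower genes, 98 rose in B6 and fell in D2, 111 rose in B6 and were not called in D2, and 150 fell in D2 and were not called in B6. A further 2 rose in both strains, and 9 were called in neither strain alone. The 166 higher genes held 85 that rose in D2 and were not called in B6, 66 that fell in B6 and were not called in D2, and 7 that fell in B6 and rose in D2. Of the rest, 4 rose in both strains, 2 fell in both and 2 were called in neither. No gene without a called difference had called effects of opposite sign. In 207 of the 370 lower genes the CMD libraries lay above the WT range in B6 and below it in D2, as they did in 324 of all genes (2.19%). In 36 of the 166 higher genes they lay below it in B6 and above it in D2, as in 113 of all genes (0.764%).

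**Figure D1:**
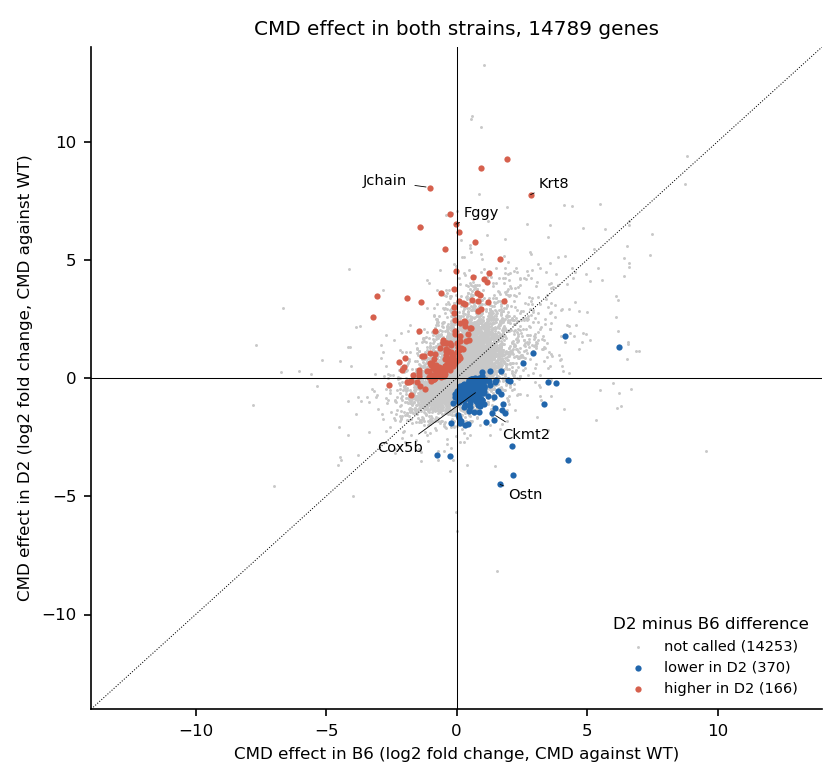
Log2 fold change of CMD against WT in B6 (horizontal axis) and D2 (vertical axis), 1 point per gene, with genes called lower in D2 in blue, higher in red and the rest in grey, and the dotted line marking equal effects. The 370 blue points lie below the dotted line, most of them right of 0 and below 0, and the 166 red points lie above it.

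By counts of calls, the difference lay mostly in the CMD groups, and in part in the WT groups. Of the 370 lower genes, 320 were lower in D2 CMD than in B6 CMD, against 1531 of all genes tested (10.4%), and 67 were already higher in D2 WT than in B6 WT, against 417 of all genes (2.82%; 1091 differed in either direction, 7.38%). Of the 166 higher genes, 122 were higher in D2 CMD (1620 of all genes, 11%) and 37 were lower in D2 WT (674 of all genes, 4.56%). These comparisons share samples with the difference, so they describe it and do not support it. Leaving out 1 library moved the count of 536 to between 283 (without D2 WT library 21) and 951 (without 87 CMD library 16). The counts without B6 WT 1, B6 WT 2, B6 CMD 6 and D2 CMD 24 were 352, 316, 308 and 320. Each of the 536 genes kept its sign in all of these fits. The genes were picked on these same libraries, so the kept signs add no support.

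Most nuclear genes of mitochondrial respiration rose in B6 CMD and fell in D2 CMD. Of 97 nuclear genes of the respiratory chain and ATP synthase, 76 were lower in D2 and 0 were higher. Their median CMD effect was 0.61 in B6, where 70 of 97 rose, and -0.51 in D2, where 59 of 97 fell, giving a median difference of -1.09 beside 0.09 over all genes. These 97 genes were 0.656% of the genes tested and 20.5% of the 370 lower genes. With the mitochondrially encoded genes, mitochondrial ribosomal proteins, import and carrier proteins, the tricarboxylic acid (TCA) cycle and fatty acid oxidation, 143 of 306 tested genes were lower, which is 38.6% of the 370. The pathway lists and the symbol families were drawn up with results of these data known, so the counts describe the difference.

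**Figure D2:**
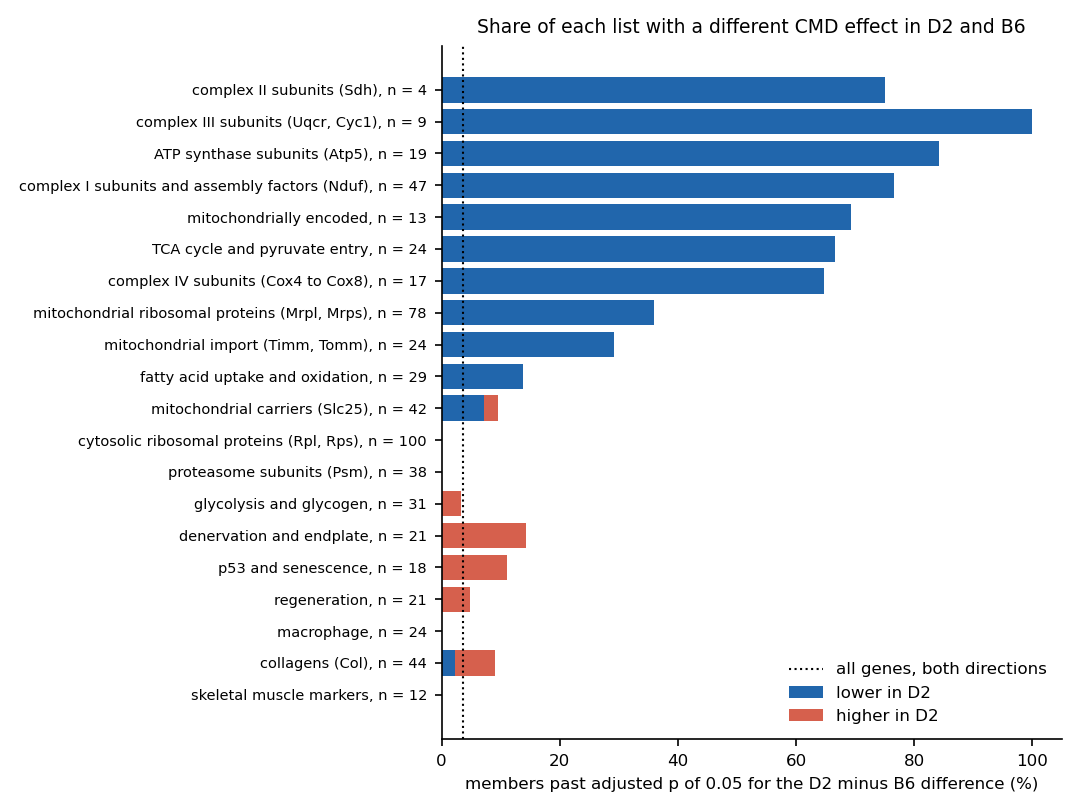
Share of the tested members of each list with a called D2 minus B6 difference, lower in D2 in blue and higher in red, with the number tested beside each name and the share over all genes (3.62%) as a dotted line. The respiratory complexes and the TCA cycle lie far above the line, and cytosolic ribosomal proteins, proteasome subunits and muscle markers have no bar.

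The same picture was seen library by library. The 26 genes of the nuclear oxidative phosphorylation list summed to 9402, 10440 and 12540 CPM in B6 WT and to 15030, 15330 and 16630 in B6 CMD. In D2 they summed to 13480, 13960 and 17210 CPM in WT and to 12410, 8005 and 7948 in CMD. Every B6 CMD library was above every B6 WT library, and every D2 CMD library was below every D2 WT library, with D2 CMD library 22 close to the lowest D2 WT library. Every D2 WT library was also above every B6 WT library. The median log2 fold change of D2 against B6 in this list was 0.45 among WT and -0.78 among CMD. It was 0.37 and -0.60 for the TCA list, 0.50 and -0.45 for the fatty acid list, and 0.13 and -1.30 for mitochondrially encoded genes. The levels of the skeletal muscle markers, as a median log2 CPM over members relative to the B6 WT mean, were -0.18, -1.06 and -0.79 in D2 CMD libraries 22, 23 and 24, the same order of library 22 against the other 2 as for respiration. In B6 CMD the marker levels were -0.28, -0.57 and -0.66, below B6 WT, while the respiratory genes were above it. Whether loss of muscle RNA had a part in the fall in D2 was not tested. Markers of slow fibres, which are rich in mitochondria, varied within groups, with summed levels of 69.0 to 392.9 CPM in B6 WT, 735.3 to 1291 in B6 CMD, 300.1 to 3016 in D2 WT and 429.7 to 2152 in D2 CMD. The slow fibre list had a median difference of -1.37, with 11 of 14 estimates below 0 and no difference called by edgeR. Its median effect was 1.3 in B6 and 0.38 in D2. The median of D2 against B6 was 2.44 among WT and 2.20 among CMD, with 5 of 14 genes called higher in each. The part of slow fibres in the result was not tested.

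**Figure D3:**
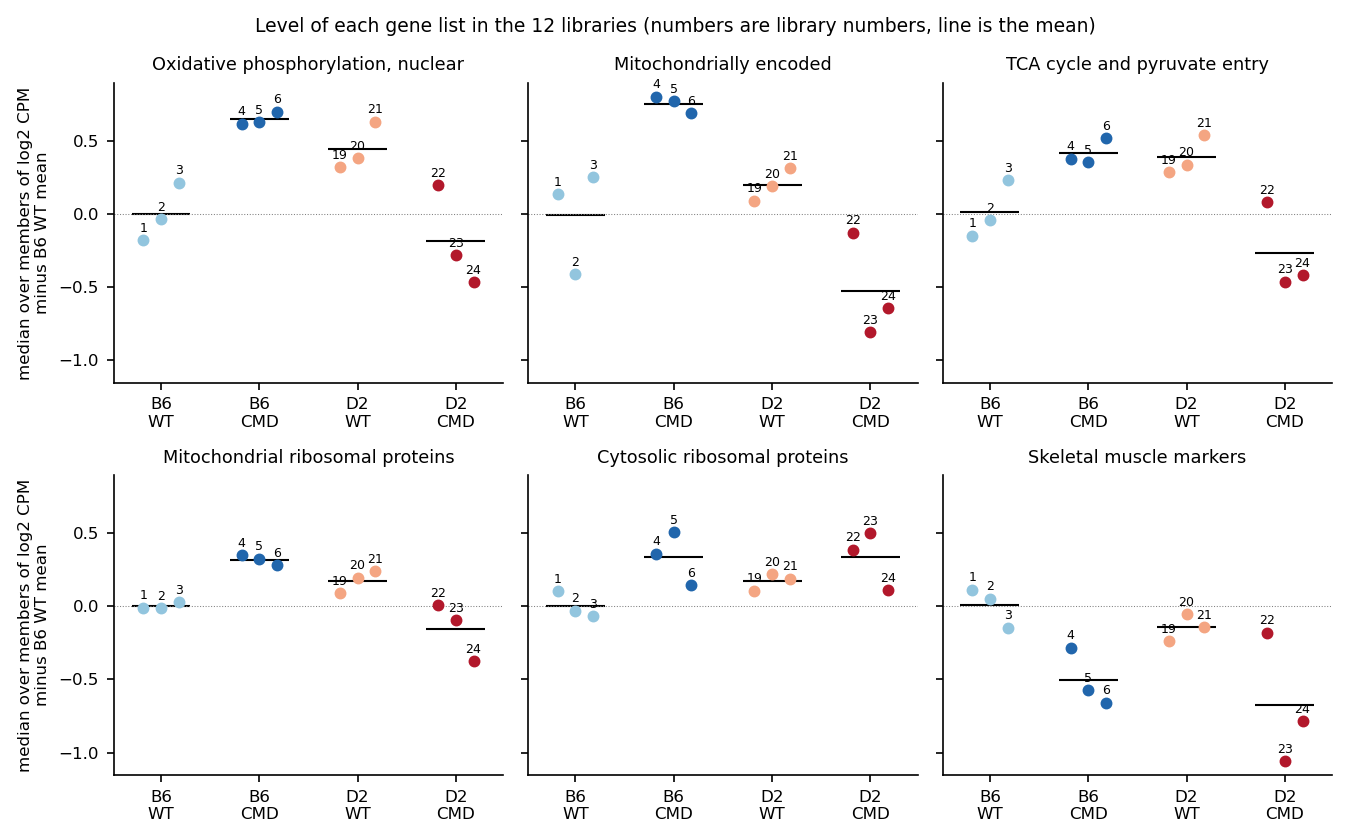
Level of 6 gene lists in each library, as the median over members of log2 CPM minus the B6 WT mean, with points for libraries (numbered) and lines for group means. Oxidative phosphorylation, mitochondrially encoded, TCA cycle and mitochondrial ribosomal genes are high in B6 CMD and low in D2 CMD, whereas cytosolic ribosomal genes are above the B6 WT mean in both CMD groups and muscle markers are below it in both.

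Complex I, the largest of the complexes, takes electrons from NADH. Of 47 tested genes with an Nduf symbol (subunits and assembly factors), 36 were lower in D2 and none higher, with a median difference of -0.95. Ndufa9, a subunit near the quinone site, had 161, 176 and 218 CPM in B6 WT and 268, 265 and 282 in B6 CMD, against 219, 227 and 292 in D2 WT and 198, 130 and 127 in D2 CMD. The groups did not overlap in either strain, and the Ndufa9 difference was -1.25 (SE 0.22, adjusted p = 0.00504). Complex II, the succinate dehydrogenase that also works in the TCA cycle, had 3 of 4 subunits lower. Its membrane anchor Sdhc had 191, 219 and 258 CPM in B6 WT, 352, 404 and 388 in B6 CMD, 285, 292 and 342 in D2 WT and 255, 184 and 194 in D2 CMD. Sdhc rose in B6 by 0.77 (adjusted p = 0.0023), and in D2 it fell by 0.54 (adjusted p = 0.016), a difference of -1.31 (SE 0.21, adjusted p = 0.00309). All 9 tested subunits of complex III, which passes electrons to cytochrome c, were lower, with a median of -1.23.

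Complex IV, cytochrome c oxidase, had 11 of 17 nuclear genes lower and none higher. Cox5b, one of its nuclear subunits, had 213, 225 and 250 CPM in B6 WT and 402, 419 and 420 in B6 CMD. In D2 it had 275, 264 and 345 CPM in WT and 240, 203 and 176 in CMD. Cox5b rose in B6 by 0.85 on the log2 scale (adjusted p = 0.0011), while in D2 it fell by 0.52 (adjusted p = 0.017). The Cox5b difference of -1.37 (SE 0.20, adjusted p = 0.00309) stayed between -1.49 and -1.23 in the 36 other fits and passed the threshold in each. Some subunits of this complex exist as isoforms, which were looked at after their values were seen. The striated muscle isoforms Cox6a2, Cox7a1 and Cox8b were all lower in D2, with differences of -1.01, -1.91 and -1.02. Of their widely expressed counterparts, Cox6a1 and Cox8a had differences of 0.07 (adjusted p = 0.977) and -0.09 (adjusted p = 0.949), while Cox7a2 was lower, at -1.07. Cox8a rose in both strains, by 1.04 in B6 (adjusted p = 0.0278) and 0.95 in D2 (adjusted p = 0.0385). ATP synthase had 16 of 19 genes lower, with a median of -1.12.

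Ckmt2, the mitochondrial creatine kinase of striated muscle that hands ATP energy to creatine, had the greatest difference among the 12 lower genes with the smallest p. It had 397.7, 518.3 and 965 CPM in B6 WT and 1546, 1403 and 1871 in B6 CMD, against 1002, 937 and 1722 in D2 WT and 616, 256 and 430 in D2 CMD. It was higher in all 3 B6 CMD libraries than in any B6 WT library and lower in all 3 D2 CMD libraries than in any D2 WT library. Its effect was 1.36 in B6 (adjusted p = 0.0079). In D2 it was -1.49 (adjusted p = 0.0039), and the difference was -2.85 (SE 0.45, adjusted p = 0.00309).

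Promoters of the respiratory genes are shown because these genes moved together across chromosomes. NRF1, the ETS factor GABP and the estrogen-related receptors are known regulators of such genes. RefSeq promoter windows (GRCm38.p6, from 250 bases before to 50 after a start) were matched to 11588 of the 14789 tested genes. Both strands were searched for an NRF1 pattern, CCGGAAGT (ETS) and TCAAGGTCA (estrogen-related receptor). The NRF1 pattern has 10 letters, with any base allowed at a position near its middle, and it is not a palindrome. Matches of the motifs do not share letters in any window printed. The NRF1 letters were in 20 of 77 nuclear respiratory and ATP synthase genes with a window (26.0%), in 44 of 303 genes lower in D2 (14.5%), in 12 of 127 higher genes (9.45%) and in 10.2% of all genes. Among ATP synthase genes they were in 7 of 15. The ETS letters were in 5 of the 77 (6.49%, beside 8.01% of all), and the receptor letters in 2 of the 77 and in 0.345% of all. The windows below belong to lower respiratory genes chosen for a small p, with a different gene for each motif. The windows are from the minus strand, with the motif matches in capitals. They are Atp5mc3, which encodes the membrane ring of ATP synthase, at chr2:73911277-73911576, Uqcrh of complex III at chr4:116075021-116075320, and Sdhd of complex II at chr9:50603800-50604099.
Atp5mc3: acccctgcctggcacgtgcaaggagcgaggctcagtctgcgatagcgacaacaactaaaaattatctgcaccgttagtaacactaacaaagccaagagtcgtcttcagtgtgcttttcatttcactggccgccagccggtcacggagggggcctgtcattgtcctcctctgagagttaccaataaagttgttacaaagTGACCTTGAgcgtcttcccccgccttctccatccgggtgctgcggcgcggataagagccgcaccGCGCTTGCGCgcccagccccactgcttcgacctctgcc
Uqcrh: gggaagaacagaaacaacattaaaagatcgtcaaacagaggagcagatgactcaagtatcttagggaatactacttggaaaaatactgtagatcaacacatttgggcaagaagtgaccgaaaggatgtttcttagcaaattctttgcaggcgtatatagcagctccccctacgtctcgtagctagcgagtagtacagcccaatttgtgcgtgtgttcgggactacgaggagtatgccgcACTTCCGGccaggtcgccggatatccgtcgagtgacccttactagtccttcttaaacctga
Sdhd: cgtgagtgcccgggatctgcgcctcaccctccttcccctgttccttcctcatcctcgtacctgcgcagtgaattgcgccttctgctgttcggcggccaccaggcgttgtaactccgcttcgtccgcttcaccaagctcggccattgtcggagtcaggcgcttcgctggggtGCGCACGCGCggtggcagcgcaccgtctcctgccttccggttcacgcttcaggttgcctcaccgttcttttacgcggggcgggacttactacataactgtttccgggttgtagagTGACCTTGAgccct
The Atp5mc3 window holds the receptor and NRF1 letters, the Uqcrh window the ETS letters near its start, and the Sdhd window NRF1 and receptor letters. Atp5mc3 had 280, 324 and 423 CPM in B6 WT, 580, 647 and 664 in B6 CMD, 412, 464 and 584 in D2 WT and 394, 269 and 282 in D2 CMD. Its difference was -1.51 (adjusted p = 0.00495), that of Uqcrh -1.23 (adjusted p = 0.00632) and that of Sdhd -1.34 (adjusted p = 0.00882). Atp5mc3 was shown for NRF1, so Sdhd was shown for the receptor letters although its p was larger than that of Atp5mc3. A match of letters does not show that a factor binds there.

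The mitochondrial genome encodes core subunits of complexes I, III, IV and ATP synthase, and its transcripts had median effects of 0.73 in B6 and -0.65 in D2. Of its 13 protein genes, 9 had a lower difference in D2 and none a higher one, with a median of -1.39. Within the strains 7 of 13 rose in B6 and 4 of 13 fell in D2. The B6 count was 0 without B6 WT 2, 2 without B6 CMD 5 and 4 without B6 CMD 6. The D2 count was 2 with sex from the Y-linked reads, 0 without D2 WT 21, D2 CMD 23 or D2 CMD 24, 1 without D2 WT 20 and 10 without D2 CMD 22. It was 7 to 9 without B6 WT 2, B6 WT 3, 87 WT 13, 87 CMD 16 or 87 CMD 18. Reads of these genes made up 9.01% to 13.7% of all reads in B6 WT, 20.5% to 21.8% in B6 CMD, 13.2% to 15.7% in D2 WT and 9.16% to 12.4% in D2 CMD. The ranges did not overlap within either strain. mt-Co1, the catalytic subunit of cytochrome c oxidase, had 32000, 27730 and 40313 CPM in B6 WT and 56895, 60863 and 64083 in B6 CMD. In D2 mt-Co1 had 37604, 39744 and 53637 CPM in WT and 33841, 20769 and 21912 in CMD. The difference was -1.64 (SE 0.32, adjusted p = 0.00721) for mt-Co1 and -1.49 (SE 0.30, adjusted p = 0.00896) for mt-Co2, which carries the copper site that receives electrons. The count of 9 was 4 without B6 WT 2, B6 CMD 6 or D2 WT 21, and 5 without B6 CMD 4, B6 CMD 5, D2 WT 20, D2 CMD 23 or D2 CMD 24. Since these transcripts take up to 21.8% of a library, they were also removed before normalisation, and the nuclear list then had a median difference of -1.28.

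In the TCA cycle and pyruvate entry, 16 of 24 genes were lower and none higher, with a median of -1.02. They included subunits of pyruvate dehydrogenase (Pdha1, Pdhb, Dlat, Dld), isocitrate dehydrogenase (Idh2, Idh3a, Idh3b, Idh3g) and both carriers of pyruvate (Mpc1, Mpc2). The malate dehydrogenases, which also shuttle reducing equivalents into mitochondria, were among them. Mdh1, the cytosolic form, had 287, 380 and 576 CPM in B6 WT, 737, 782 and 938 in B6 CMD, 559, 595 and 771 in D2 WT and 384, 325 and 288 in D2 CMD. The groups did not overlap in either strain, and the Mdh1 difference was -1.93 (SE 0.31, adjusted p = 0.00309). Mdh2, the mitochondrial form, differed by -1.29 (SE 0.24, adjusted p = 0.00662). The list count of 16 was 10 without B6 WT 1, B6 WT 2 or D2 WT 21, and 9 without B6 CMD 6.

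Fatty acid uptake and oxidation showed fewer calls. Of 29 genes 4 were lower (13.8%, beside 2.50% of all genes) and none higher, although 27 of 29 estimates were below 0 and the median was -1.04. Hadh, which oxidises the hydroxyacyl step of beta-oxidation, had 106, 101 and 161 CPM in B6 WT, 183, 189 and 208 in B6 CMD, 220, 173 and 241 in D2 WT and 190, 155 and 112 in D2 CMD, a difference of -1.13 (SE 0.26, adjusted p = 0.0185). The Hadh groups did not overlap in B6 and overlapped in D2, and its call was lost without B6 CMD 6 or D2 WT 21 (adjusted p = 0.0511 and 0.0503). The other called members were the dehydrogenase Acads, the reductase Decr1 and the regulator Esrra. With 1 library left out, the count of 4 ranged from 1 (without B6 CMD 6 or D2 WT 21) to 17 (without B6 WT 3), was 2 without B6 WT 1, B6 WT 2 or D2 CMD 24, and was 9 without 87 CMD 16. Phyh, the peroxisomal enzyme that starts alpha-oxidation of branched fatty acids, had 109, 112 and 169 CPM in B6 WT, 227, 217 and 275 in B6 CMD, 193, 181 and 265 in D2 WT and 143, 89.3 and 87.3 in D2 CMD. Phyh was thus high in B6 CMD and low in D2 CMD with no overlap, and its difference was -1.88 (SE 0.28, adjusted p = 0.00309). Coenzyme Q carries electrons between the complexes, and 6 of 11 genes with a Coq symbol were lower (54.5%). Among them was Coq10a at -1.31 (SE 0.21, adjusted p = 0.00309). Of 42 mitochondrial carriers 3 were lower (7.14%) and 1 was higher, beside 2.50% of all genes lower and 1.12% higher. The lower ones were the ADP and ATP exchanger Slc25a4 (-1.01), the phosphate carrier Slc25a3 (-1.26) and the oxoglutarate and malate carrier Slc25a11 (-1.63). The iron carrier Slc25a37 was higher (0.81). The call for Slc25a37 was lost without D2 WT 21 or D2 CMD 24, and with only libraries without Y-linked reads no carrier was higher and 2 were lower.

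The machinery that builds mitochondria was lower too, by a smaller step. Of 78 mitochondrial ribosomal proteins, 28 were lower in D2 and none higher, and all 78 estimates were below 0, with a median of -0.64. Mrpl28 had 32.6, 36.4 and 39.1 CPM in B6 WT, 57.3, 58.8 and 62.0 in B6 CMD, 42.4, 42.8 and 49.7 in D2 WT and 36.1, 34.0 and 26.3 in D2 CMD. The groups were apart in both strains, and the Mrpl28 difference was -1.21 (SE 0.19, adjusted p = 0.00309). The count of 28 fell to 15 without D2 WT 21 and to 18 without B6 CMD 5, B6 CMD 6 or D2 CMD 24, and it was 50 without 87 CMD 16 and 46 without D2 CMD 22. In protein import, 7 of 24 genes were lower, a count that was 2 without B6 CMD 6, 3 without D2 WT 21 or D2 CMD 24, 4 without B6 WT 1, B6 WT 2 or B6 CMD 4, and 11 without 87 CMD 16. Tomm5, a small part of the outer membrane import channel, differed by -1.25 (SE 0.20, adjusted p = 0.00309). Pmpcb, the protease subunit that removes import signals, had 57.9, 62.8 and 66.5 CPM in B6 WT, 85.1, 83.7 and 88.8 in B6 CMD, 76.5, 80.1 and 87.8 in D2 WT and 63.8, 59.2 and 50.8 in D2 CMD. The Pmpcb difference was -0.95 (SE 0.14, adjusted p = 0.00309). Bola3, which helps to place iron-sulfur clusters in mitochondrial enzymes, differed by -1.0 (SE 0.15, adjusted p = 0.00309), with no overlap in either strain. Of 100 proteins of the cytosolic ribosome, 18 of which had an estimate above 0, edgeR called 0, with 5 at an unadjusted p under 0.05 and 2 called by DESeq2, and their median difference was -0.17. Whether the 2 kinds of ribosome differ was not tested. Of 38 proteasome subunits edgeR and DESeq2 called 0, with 0 at an unadjusted p under 0.05.

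Esrra, the estrogen-related receptor that switches on oxidative genes in muscle, had 63.7, 78.4 and 84.5 CPM in B6 WT, 109, 103 and 120 in B6 CMD, 76.6, 81.4 and 87.1 in D2 WT and 69.5, 46.6 and 49.2 in D2 CMD. It rose in B6 by 0.55 (adjusted p = 0.0234), in D2 it fell by 0.57 (adjusted p = 0.0184), and the difference was -1.12 (SE 0.23, adjusted p = 0.00926). Other known regulators were read after these values were seen. Perm1, a muscle regulator of oxidative genes, was lower, at -2.27 (SE 0.47, adjusted p = 0.0101). Ppargc1a, the coactivator PGC-1 alpha, differed by -1.24 without passing the threshold (adjusted p = 0.0745). The values of Nrf1 (0.06, adjusted p = 0.952), Gabpa (-0.29, adjusted p = 0.630) and Tfam (-0.21, adjusted p = 0.587) did not pass it either.

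Both the rise in B6 and the fall in D2 depended on single libraries, and on how sex was handled. The nuclear oxidative phosphorylation list had 25 of 26 genes lower, and this count was 16 with only the libraries that lack Y-linked reads and 20 to 26 in the other fits. Its median difference was -1.21 with sex from the Y-linked reads. In the D2 arm, 23 of the 26 genes fell, but 15 did so with sex from the Y-linked reads, 12 without D2 WT 21, 12 without D2 CMD 23 and 10 without D2 CMD 24. Without 87 CMD 16 and D2 CMD 23 together, 11 fell, and with the sex term added 0 fell, while the median D2 effect was -0.37. In the B6 arm 22 rose, with 13 without B6 WT 1, 8 without B6 WT 2 and 13 without B6 CMD 6. With only the libraries that lack Y-linked reads, 24 fell in D2 and 11 rose in B6. The D2 effects of Cox5b, Sdhc and mt-Co2 did not pass the threshold in the fit that takes sex from the Y-linked reads, at adjusted p of 0.0608, 0.0578 and 0.0617, while their differences were called there. The median D2 effect was below 0 and the median B6 effect above 0 in all these fits.

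Keeping only libraries without Y-linked reads leaves 1 library each in B6 CMD and D2 CMD, each assumed to vary like the other groups, and it lowered the counts of these lists. The lower genes then numbered 16 of complex I (36 with all libraries), 5 of complex III (9), 7 of complex IV (11), 10 of ATP synthase (16), 4 of the mitochondrially encoded genes (9), 5 of the TCA list (16), 3 of the mitochondrial ribosomal proteins (28), and 0 of both the import (7) and the fatty acid lists (4). The count over all genes was then 166 instead of 536. With only the B6 and D2 libraries the counts were 10 for the TCA list, 5 for mitochondrially encoded genes and 2 for the fatty acid list. Without 87 CMD 16 and D2 CMD 23, and with the sex term added, the counts were 9 for the TCA list, 4 for mitochondrially encoded genes and 1 for the fatty acid list. The fatty acid list had 13 lower genes with sex as labelled and 10 by DESeq2. With a log2 size of at least 1 required, 22 genes of complex I, 7 mitochondrial ribosomal proteins and 3 import genes were lower. The mitochondrial ribosomal proteins numbered 46 by DESeq2, 45 without 87 CMD 16 and D2 CMD 23 and 40 with sex as labelled.

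CMD mice of the strains 67 and 87 are given for scale. Over the 97 nuclear respiratory genes the median effect was 0.24 in 67 and 0.78 in 87, beside 0.61 in B6 and -0.51 in D2. In the nuclear oxidative phosphorylation list 5 of 26 genes rose in 67 (1690 of all genes rose, 11.4%, and 1520 fell, 10.3%) and 26 of 26 in 87 (1696 of all genes rose, 11.5%, and 1387 fell, 9.38%). Over the 13 mitochondrially encoded genes the medians were 0.20 in 67 and 0.43 in 87.

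**Figure D4:**
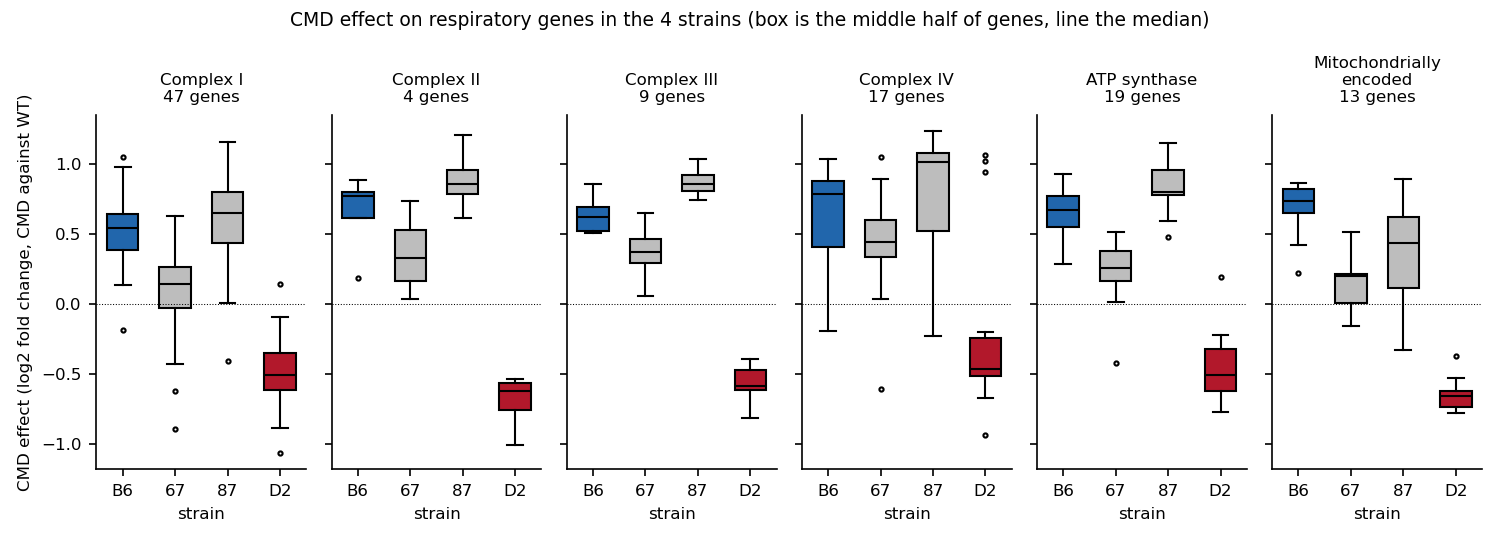
CMD effect (log2 fold change) on the genes of each respiratory complex, of ATP synthase and of the mitochondrial genome in the 4 strains, with boxes over genes, a line at the median and circles for outlying genes. Boxes lie above 0 in B6 and 87, near or above 0 in 67 and below 0 in D2.

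Genes higher in D2 were more varied. The gene with the smallest p was Fggy, which encodes a carbohydrate kinase. Fggy had 8.03, 5.32 and 6.87 CPM in B6 WT and 6.57, 6.01 and 7.25 in B6 CMD. In D2 it had 0.200, 0.0724 and 0.0208 CPM in WT, from 13 reads in all, and 2.96, 12.3 and 12 in CMD. It was thus nearly absent from D2 WT, while in D2 CMD 1 library was below all B6 libraries and 2 were above them. Its difference of 6.54 (SE 0.74, adjusted p = 0.00039) came from a D2 effect of 6.51. In strains 67 and 87 the Fggy effects were 0.65 (adjusted p = 0.29) and 1.55 (adjusted p = 0.019).

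Several higher genes fell in B6 CMD and held their level in D2. Acvr1b, a type I receptor for activin and myostatin, which restrain muscle growth, had 74.6, 89.0 and 92 CPM in B6 WT and 30.9, 27.7 and 22 in B6 CMD. In D2 Acvr1b had 42.4, 49.0 and 36.5 CPM in WT and 48.5, 36.0 and 54.5 in CMD. It fell in B6 by 1.67 on the log2 scale (adjusted p = 0.00033), its D2 groups overlapped, and the difference was 1.78 (SE 0.33, adjusted p = 0.00603). Sort1, the sorting receptor sortilin, had 181, 154 and 135 CPM in B6 WT, 61.5, 48.6 and 64.3 in B6 CMD, 101, 141 and 87.1 in D2 WT and 133, 116 and 104 in D2 CMD, a difference of 1.53 (SE 0.29, adjusted p = 0.00632). Sort1 was low in B6 CMD alone among the 4 groups. The circadian output gene Tef fell in B6 by 0.79 (adjusted p = 0.0025) and differed by 0.91 (SE 0.21, adjusted p = 0.0212). The call for Tef was lost without B6 CMD 6, D2 WT 19, D2 WT 21 or D2 CMD 24 (adjusted p = 0.0584, 0.0608, 0.0692 and 0.0647).

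Other higher genes rose in D2 CMD. Sh3d19, an adaptor protein with SH3 domains, had 13.1, 9.99 and 10.7 CPM in B6 WT, 18.8, 18.7 and 22 in B6 CMD, 12.3, 8.30 and 12.9 in D2 WT and 43.1, 121 and 157 in D2 CMD. All 3 D2 CMD libraries were above every other library of the 12, and the difference was 2.44 (SE 0.47, adjusted p = 0.00663). Col23a1, a transmembrane collagen, had 1.28, 2.24 and 1.79 CPM in B6 WT, 1.46, 1.87 and 1.68 in B6 CMD, 3.23, 2.37 and 3.70 in D2 WT and 12.1, 63.1 and 50.2 in D2 CMD, a difference of 3.84 (SE 0.70, adjusted p = 0.0056). Of 44 collagens 3 were higher (Col23a1, Col25a1 and Col7a1) and Col8a1 was lower, beside 1.12% of all genes higher and 2.50% lower. Only 1 collagen was higher without B6 WT 2, B6 CMD 5, B6 CMD 6, D2 CMD 23, D2 CMD 24 or any of the 3 D2 WT libraries. Per2, a core repressor of the circadian clock, had 10.2, 10.3 and 21.9 CPM in B6 WT, 7.85, 11.7 and 10.2 in B6 CMD, 5.41, 5.38 and 3.6 in D2 WT and 13.7, 11.3 and 16.8 in D2 CMD. With Tef, it made 2 of 19 clock genes higher, a count that was 0 with only libraries without Y-linked reads, 1 without B6 CMD 6, D2 WT 19, D2 WT 21 or D2 CMD 24 and 6 without 87 CMD 16. With all libraries 10.5% of the clock list was called, beside 3.62% of all genes. Per2 was low in D2 WT alone, and its difference was 2.05 (SE 0.40, adjusted p = 0.00791). Snx10, an endosomal sorting nexin, was likewise low in D2 WT (5.34, 3.16 and 2.91 CPM) and differed by 2.14 (SE 0.42, adjusted p = 0.00776).

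Another 7 genes fell in B6 and rose in D2. Lrp3, a member of the LDL receptor family, had 9.57, 12.1 and 13.9 CPM in B6 WT, 6.6, 7.99 and 8.30 in B6 CMD, 6.25, 4.46 and 5.49 in D2 WT and 12.2, 13.7 and 13.6 in D2 CMD. It fell in B6 by 0.64 (adjusted p = 0.042) and rose in D2 by 1.29 (adjusted p = 0.00065), a difference of 1.92 (SE 0.30, adjusted p = 0.00309). The chromatin genes Chd4, a remodeller of the NuRD complex, and Phc1, a Polycomb protein, differed by 0.95 (SE 0.19, adjusted p = 0.00904) and 1.63 (SE 0.29, adjusted p = 0.00504). With sex from the Y-linked reads the D2 effect of Phc1 did not pass the threshold (0.53, adjusted p = 0.0982). Ipo9, an import receptor of the nucleus, had 41.4, 41.1 and 39.1 CPM in B6 WT, 30.3, 27.8 and 29.4 in B6 CMD, 37.5, 38.5 and 36.9 in D2 WT and 47.2, 45.7 and 52.1 in D2 CMD. The libraries of each Ipo9 group lay close together, and its difference was 0.83 (SE 0.13, adjusted p = 0.00321).

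**Figure D5:**
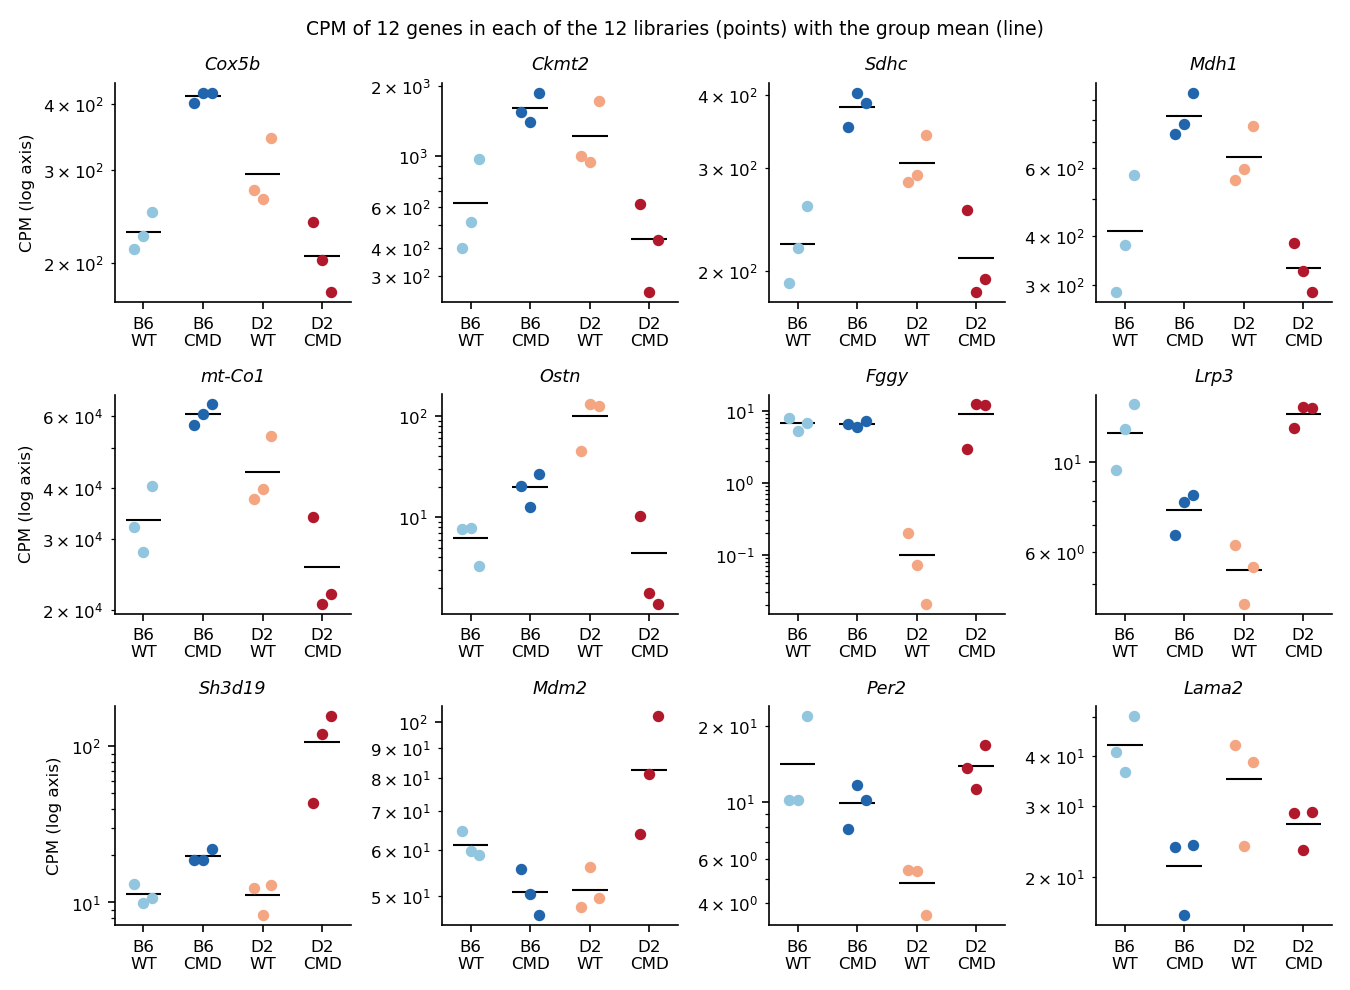
CPM on a log axis of 12 genes in the 12 libraries, with a point per library and a line at the group mean. Cox5b, Ckmt2, Sdhc, Mdh1, mt-Co1 and Ostn are high in B6 CMD or D2 WT and low in D2 CMD. In each of these genes the B6 WT range overlaps that of D2 CMD. Fggy is at most 0.200 CPM in D2 WT, and Lama2 is below the B6 WT range in all 3 B6 CMD libraries.

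Genes of denervation and the endplate, which muscle raises when contact with its nerve is lost, had 3 of 21 members higher and none lower. Over all genes 1.12% were higher and 2.50% lower. Hdac4, a denervation-induced deacetylase, had 63.1, 52.8 and 44.2 CPM in B6 WT, 42.6, 41.3 and 42.9 in B6 CMD, 49.4, 80.2 and 54.3 in D2 WT and 88.1, 143 and 176 in D2 CMD. The Hdac4 difference was 1.48 (SE 0.33, adjusted p = 0.0151), and its call was lost without B6 WT 1, D2 WT 19, D2 WT 21 or D2 CMD 24 (adjusted p = 0.053, 0.0507, 0.0592 and 0.0662). Another called member was Fgfbp1, a binding protein of fibroblast growth factors, with 2 reads in all in D2 WT (6.50, SE 1.67, adjusted p = 0.0345). The list count was 0 without D2 WT 19 or D2 WT 21, and 1 without B6 WT 2, B6 CMD 4, B6 CMD 6, D2 WT 20, D2 CMD 23 or D2 CMD 24 or with sex as labelled. Summed Schwann cell and nerve markers were 102.7, 464.7 and 283.8 CPM in D2 CMD libraries 22, 23 and 24, and 70.4 to 129.7 in the other 9 libraries. Their part in these values was not tested.

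Of 21 genes of muscle regeneration 11 rose and 1 fell in B6, and 10 rose in D2, beside 8.07% and 11.2% of all genes that rose. The median difference of the list was 0.02. Embryonic myosin Myh3 rose by 4.46 in B6 (adjusted p = 0.00277) and 4.25 in D2 (adjusted p = 0.00206), with a difference of -0.21 (SE 1.08, adjusted p = 0.954). The 1 called member (4.76% of the list, beside 3.62% of all genes) was the keratin Krt8. Krt8 rose in both strains and more in D2, by 2.83 in B6 and 7.75 in D2, a difference of 4.92. It was not among the genes picked by the naming rule. Among 18 p53 and senescence genes 2 were higher, a count that was 1 without B6 WT 1, B6 CMD 6 or D2 WT 21 and 0 with only libraries without Y-linked reads. With all libraries 11.1% of the p53 list was called, beside 3.62% of all genes. Mdm2, the ubiquitin ligase that p53 induces to limit itself, had 64.8, 59.8 and 58.8 CPM in B6 WT, 55.5, 50.4 and 46.3 in B6 CMD, 47.8, 56.2 and 49.6 in D2 WT and 63.9, 81.2 and 102 in D2 CMD. Only the D2 CMD group was above its WT range, and the Mdm2 difference was 0.96 (SE 0.19, adjusted p = 0.00896). Eda2r, the ectodysplasin receptor, rose in both strains, by 0.95 in B6 (adjusted p = 0.0406) and 2.91 in D2 (adjusted p = 2.8e-05), a difference of 1.97 (SE 0.44, adjusted p = 0.0159). The Eda2r call was lost without B6 WT 1, B6 CMD 6 or D2 WT 21 (adjusted p = 0.0528, 0.0501 and 0.0525).

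Among lower genes outside respiration, Slc47a1, an exporter of organic cations, had 13.1, 12.9 and 17.8 CPM in B6 WT, 60.7, 65.4 and 56.2 in B6 CMD, 28.9, 33.6 and 41.7 in D2 WT and 42.0, 24.4 and 29.7 in D2 CMD. It rose in B6 by 2.06 (adjusted p = 2.9e-05), its D2 groups overlapped, and the difference was -2.18 (SE 0.30, adjusted p = 0.00309). Prdx2, a peroxiredoxin that removes hydrogen peroxide, had 66.9, 70.7 and 76.2 CPM in B6 WT, 145, 151 and 147 in B6 CMD, 93.0, 93.0 and 134 in D2 WT and 104, 102 and 84.5 in D2 CMD, a difference of -1.19 (SE 0.18, adjusted p = 0.00309). Ostn, the secreted factor osteocrin, had 7.66, 7.86 and 3.27 CPM in B6 WT, 20.3, 12.5 and 26.7 in B6 CMD, 45.4, 130 and 127 in D2 WT and 10.2, 1.79 and 1.40 in D2 CMD. Ostn was highest in D2 WT and had a D2 effect of -4.50 (adjusted p = 0.0036), and the difference was -6.17 (SE 1.27, adjusted p = 0.0103). Fuom, an enzyme of fucose metabolism, differed by -1.66 (SE 0.25, adjusted p = 0.00309), with no overlap in either strain.

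The scar and matrix genes gave calls that were few in number, and over all genes 3.62% were called. The called share was 3.7% of fibrillar matrix, 4.35% of basement membrane and 5.56% of fibroblast genes. It was 15.4% of bone and mineralisation genes and 0 of 21 matrix turnover genes. Of 27 fibrillar matrix genes 1 was lower, Col8a1, which rose by 2.95 in B6 (adjusted p = 7.9e-05) and by 1.08 in D2 (adjusted p = 0.029), a difference of -1.87 (SE 0.48, adjusted p = 0.0327). The median difference of that list was 0.01. Fbln2 of the basement membrane list (-0.97, adjusted p = 0.0433), Mfap5 of the fibroblast list (-1.40, adjusted p = 0.0417) and the phosphatase Alpl (-2.10, adjusted p = 0.0448) passed narrowly. Each of these 4 genes lost its call when any of several libraries was left out, with an adjusted p of at most 0.106. The modifiers known from other dystrophies did not pass: Ltbp4, which holds latent TGF-beta in the matrix, differed by -0.57 (adjusted p = 0.579), Anxa6, a membrane repair annexin, by -0.46 (adjusted p = 0.171), and Spp1, osteopontin, by -0.56 (adjusted p = 0.748). Spp1 rose in both strains, by 2.64 in B6 (adjusted p = 0.0044) and 2.08 in D2 (adjusted p = 0.0095). Gpnmb, a glycoprotein of macrophages for which D2 mice are known to carry a stop codon, had 9.20, 3.20 and 3.50 CPM in B6 WT, 8.37, 14.9 and 8.37 in B6 CMD, 0.200, 0.0483 and 0.458 in D2 WT and 0.480, 0.389 and 1.60 in D2 CMD. Gpnmb was low in D2 of both genotypes, and its difference of 0.77 (adjusted p = 0.755) did not pass. The signs of the Gpnmb and Spp1 differences changed among the alternative fits.

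Immune, fat and fibre-type lists held 0 or 1 called differences each, beside 3.62% of all genes. Lists this short can hold 0 calls at that share, so the counts do not show equal effects. Estimates were above 0 in 18 of 24 macrophage, 16 of 19 complement, 21 of 25 interferon and 15 of 17 adipocyte genes. They were above 0 in 7 of 14 lymphocyte, 12 of 15 fast fibre and 3 of 14 slow fibre genes. Over all genes 8.07% rose in B6 and 11.2% in D2. Macrophage genes had 7 of 24 rising in B6 and 15 in D2, and edgeR called 0 differences, with 3 at an unadjusted p under 0.05 and 1 by DESeq2. Complement genes had 0 of 19 rising in B6 and 8 in D2, with 0 differences called, 3 at an unadjusted p under 0.05 and 1 by DESeq2. Interferon and antigen presentation genes had 4 of 25 rising in B6 and 12 in D2, with 0 differences called by either tool and 2 at an unadjusted p under 0.05. The adipocyte list had a median difference of 1.5 and 0 calls, with 1 at an unadjusted p under 0.05 and 1 by DESeq2, and its summed level was 8018, 10890 and 5507 CPM in D2 CMD. In the lymphocyte list the antibody joining chain Jchain was higher (9.07, SE 2.19, adjusted p = 0.0253), with 71.1, 0.478 and 55.2 CPM in D2 CMD libraries 22, 23 and 24 and at most 3.79 in the other 9. Its 1 low library is the D2 CMD library without Y-linked reads, and with sex from those reads its adjusted p was 0.0933. Its call was also lost without B6 WT 1, B6 CMD 4, B6 CMD 5, D2 CMD 24 or any of the D2 WT libraries. In the slow fibre list edgeR called 0 and DESeq2 1, with 1 at an unadjusted p under 0.05. In the fast fibre list edgeR called 0 and DESeq2 1, with 2 at an unadjusted p under 0.05.

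Genes that neighbour Lama2 were counted by their order in GRCm38.p6, in which 14436 of the 14789 tested genes were matched. Of 71 tested genes within 10 Mb 2 were called (2.82%, beside 3.62% of all genes), of 34 within 5 Mb 1 was called (2.94%) and of 153 within 20 Mb 5 were called (3.27%). The called neighbours within 10 Mb were Stx7, a syntaxin of late endosomes, lower, at -0.61 (SE 0.13, adjusted p = 0.0115), and Map7, a microtubule-binding protein, higher, at 2.23 (SE 0.48, adjusted p = 0.0135).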

How the data were processed

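RNA of the left quadriceps was extracted with TRIzol and made into stranded mRNA libraries, per the labels' protocols. The deposited files give, per gene, total and unique exon read counts, and the reads were aligned to GRCm39 (mm39), per the submitters' processing notes. For the aligner and the counter, the names were not given in the sources used here. TPM and RPKM values the authors deposited beside the counts were not used for any test.

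Total exon reads of all 24 libraries were fitted with edgeR 4.0.16 in R 4.3.3 (TMM, filterByExpr with a count minimum of 10 and a total of 15, 1 mean for each of 8 groups, quasi-likelihood test). P-values were adjusted by Benjamini-Hochberg over all 14789 genes, with a threshold of 0.05. No sex term was used, since labels and Y-linked reads disagree. DESeq2 1.42.0, other libraries, sex terms, scalings and filters were alternatives, and the removal of mitochondrially encoded genes was chosen after seeing the data. CPM values are not per length, so they are compared within a gene and not between genes.

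Named genes had a call with and without sex from the Y-linked reads and a mean log2 CPM of at least 1: the 12 higher and 12 lower with the smallest p, the 2 leading called genes of each of 39 lists, up to 5 called neighbours of Lama2, and 5 fixed genes (Lama2, Ltbp4, Anxa6, Spp1, Gpnmb). Other names were chosen after their values were seen, as were the symbol families and the brain-type list. The members and lists were chosen with earlier results of these data known. Of the called genes of the denervation list, 1 is not reported here.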

Additional observations from a re-analysis of the deposited data

Results flagged for a closer look

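The CMD effect was called in both strains in opposite directions, with the difference itself past the threshold by edgeR's quasi-likelihood test, for 98 genes that rose in B6 and fell in D2 and for 7 that fell in B6 and rose in D2. Among the named genes of the first kind, the differences on the log2 scale were -1.37 for Cox5b, -1.31 for Sdhc, -1.64 for mt-Co1 and -1.49 for mt-Co2 of the respiratory chain, and -2.85 for Ckmt2. They were -1.93 for Mdh1, -1.29 for Mdh2, -1.31 for Coq10a, -1.21 for Mrpl28, -0.95 for Pmpcb and -1.0 for Bola3. Phyh was at -1.88, Fuom at -1.66 and Esrra at -1.12. Among those of the second kind the differences were 1.92 for Lrp3, 0.83 for Ipo9, 1.63 for Phc1 and 0.95 for Chd4. With sex from the Y-linked reads, the D2 effect alone no longer passed for Cox5b, Sdhc, mt-Co2 and Phc1 (adjusted p = 0.0608, 0.0578, 0.0617 and 0.0982).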

How the results depend on the processing

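No paired analysis was possible because the groups share no replicate numbers. The 536 differences (166 higher, 370 lower) kept their sign in every alternative fit, except that 535 did so with only libraries without Y-linked reads, 534 with unique exon reads and 527 with mitochondrially encoded genes removed, where a gene outside the fit counts as not kept. These genes were picked on the same libraries, so the kept signs add no support. With sex as labelled the count of differences was 838 (332 higher), and with sex from the Y-linked reads 536, of which 497 were shared. Only libraries without Y-linked reads gave 166 (49 higher, 117 lower) and 757 for D2 against B6 in CMD. Without libraries 16 and 23 it was 1061 (482 higher, 579 lower), and with sex from Y-linked reads added, 262 were higher and the D2 effect had 941. Higher genes numbered 110 with only B6 and D2 libraries and 106 with no filter. DESeq2 gave 995 (392 higher, 603 lower). A log2 size of at least 1 left 332 (220 lower), 932 for the B6 effect, 1413 for the D2 effect and 1480 for D2 against B6 in CMD.

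Leaving out each library in turn gave 283 to 951 differences, 45 to 298 higher and 232 to 653 lower. The ranges were 1139 to 3798 for the B6 effect, 1511 to 4268 for the D2 effect, 632 to 1494 for D2 against B6 in WT and 1828 to 4069 in CMD. The highest values all came without 87 CMD 16 and the lowest without B6 WT 2, D2 WT 20, D2 WT 21, B6 CMD 6 or D2 CMD 24. The cause was not tested. No named gene with a call reversed. With 3 libraries a group, genes with few reads have wide errors, and Fggy rests on 13 reads in all in D2 WT.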
